A study of Mus musculus with 39 samples.

Results

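The change from pluripotent stem cells to epiblast-like cells (EpiLC) was followed in 12 of the 39 mouse RNA sequencing libraries of the study. All 6 EpiLC libraries and all 6 stem cell libraries of the germ cell induction experiment were taken, 3 per group, by their sample labels and not by any measured value. The 4 groups were EpiLC made from gPSC4, EpiLC made from embryonic stem cells (ESC), undifferentiated gPSC4 and undifferentiated ESC, all of strain C57BL6/CBA. gPSC4 is 1 pluripotent line obtained from granulosa cells, the supporting cells of the ovarian follicle, and the ESC are 1 female line. EpiLC were made by 2 days in medium with 1% KSR (a serum replacement), bFGF and 2 ng/ml activin A. The stem cell medium and the use of feeder cells are not given in the sources used here. The labels do not say whether the 3 libraries of a group came from separate cultures, so the p-values below measure the spread between these libraries alone.

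Mouse embryonic stem cells stand close to the naive epiblast of the blastocyst, a state held by LIF acting through STAT3 and by Wnt acting through beta-catenin. FGF acting through ERK and activin or Nodal acting through SMAD2 and SMAD3 move cells into a formative state like the early postimplantation epiblast, which is an epithelium on a basement membrane and which gains DNA methylation. EpiLC are the cultured counterpart of that state and the usual starting point for making primordial germ cell-like cells.

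Levels are FPKM, fragments scaled to gene length and to library size, as deposited by the authors. Of the lengths recovered from the values, 94.1% lay within 5% of the longest coding sequence of the gene. Each library held 6107304 to 25223994 reads assigned to coding genes and 11827 to 12092 genes at 1 FPKM or more. Values of a gene in 6 libraries are given as lowest, median and highest. Differences are log2(FPKM + 1) of EpiLC minus stem cells with origin as a covariate, with their standard error (SE, 12 libraries), a scale that understates changes of low genes. A gene was tested if it reached 1 FPKM in at least 3 libraries, which 13008 genes did. It was called at an adjusted p under 0.05 in limma with an absolute difference of at least 1, and "rose" and "fell" are used of genes called in the same direction in both origins. By that use 8.50% of all genes tested rose and 9.63% fell, the shares beside which every list count below stands. For 43.7% of all genes tested no EpiLC library overlapped a stem cell library.

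The markers of the step followed the labels. Fgf5 (chr5:98254184-98277030, GRCm38, plus strand), an FGF ligand of the postimplantation epiblast, had 111, 150 and 178 FPKM in EpiLC against 0.578, 1.14 and 2.25 FPKM in stem cells. Dnmt3b (chr2:153649450-153687730, plus strand), a de novo DNA methyltransferase, had 503, 542 and 591 FPKM in EpiLC against 31.2, 44.5 and 49.9 FPKM in stem cells. Tfcp2l1 (chr1:118627945-118685168, plus strand), a transcription factor of the naive network, had 4.11, 5.2 and 6.94 FPKM in EpiLC against 461, 479 and 631 FPKM in stem cells. For none of these 3 genes did an EpiLC library come near any stem cell library. Nanog (chr6:122707489-122714633, plus strand), a homeobox factor of pluripotency, had 16.8, 22.8 and 30.8 FPKM in EpiLC against 884, 987 and 1141 FPKM in stem cells. The differences were 6.06 ± 0.19 for Fgf5 and 3.63 ± 0.083 for Dnmt3b, and -6.35 ± 0.12 for Tfcp2l1 and -5.38 ± 0.14 for Nanog, with adjusted p of 6.9e-13, 2.9e-14, 4e-15 and 1.2e-13 in that order. Pou5f1 (Oct4), the factor common to all pluripotent states, stayed abundant with 171, 202 and 224 FPKM in EpiLC against 229.6, 238 and 244 FPKM in stem cells, and its difference of -0.26 ± 0.051 was below the size needed for a call.

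**Figure D1:**
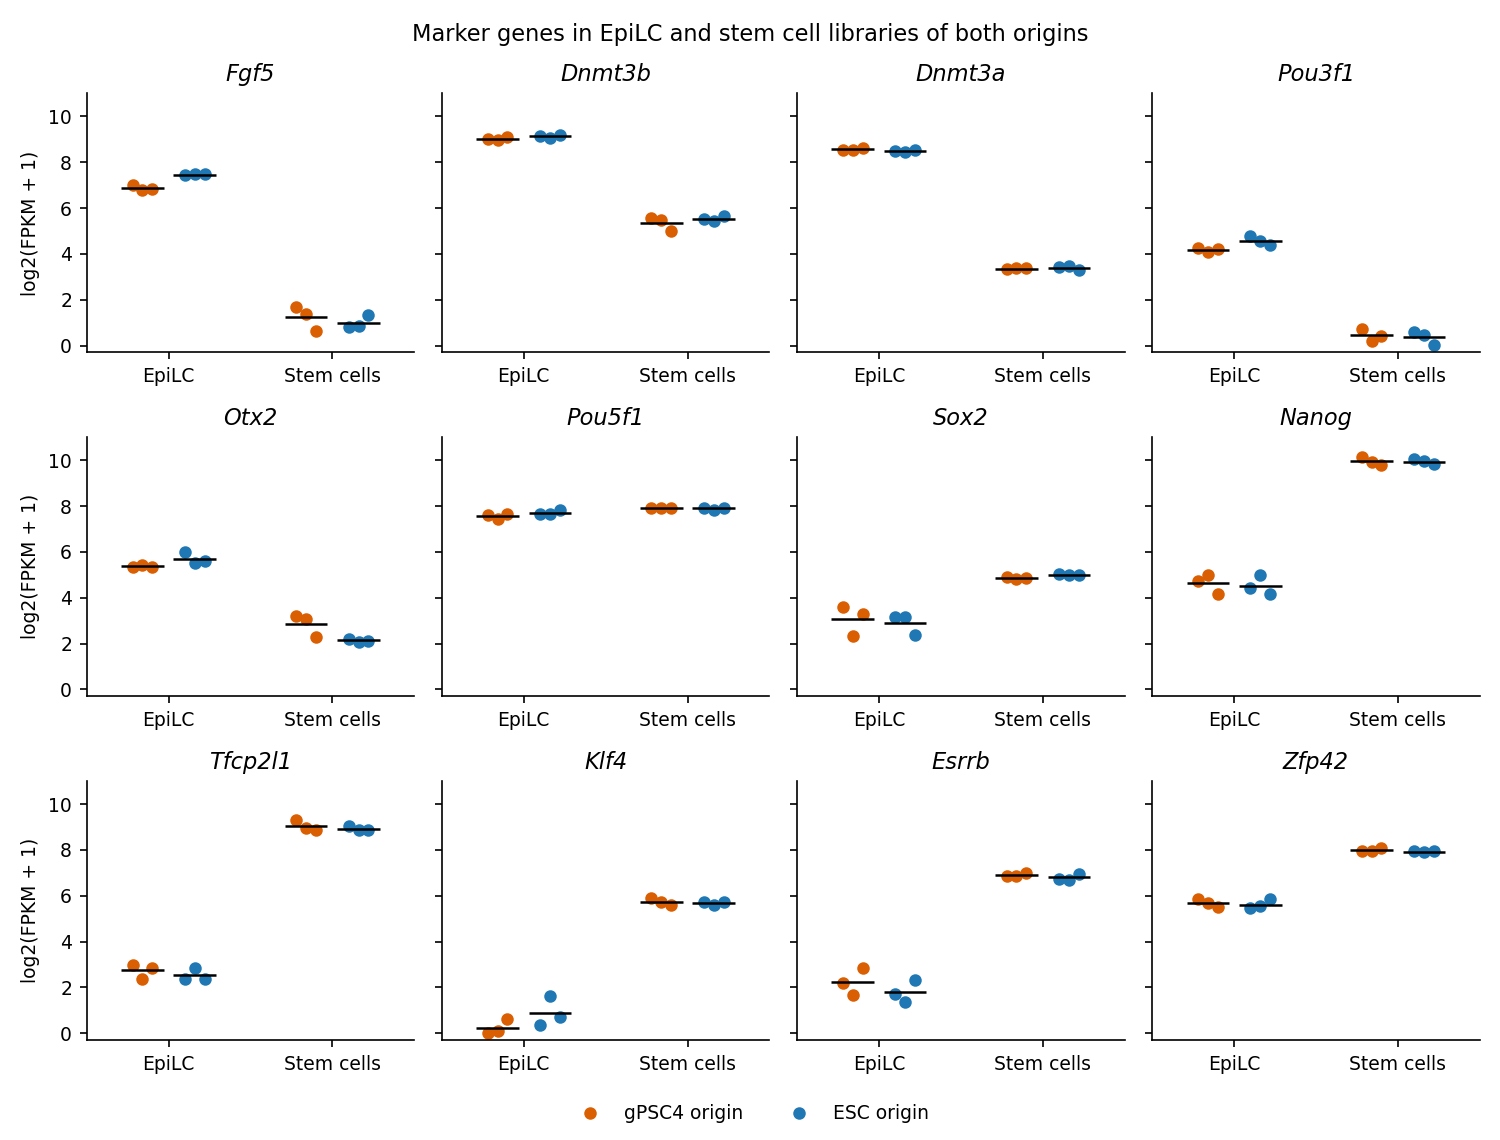
Levels of 12 marker genes as log2(FPKM + 1) in EpiLC (left) and stem cell libraries (right), where each point is 1 library, colours give the origin, and the bar is the mean of 3 libraries. Fgf5, Dnmt3b, Dnmt3a, Pou3f1 and Otx2 stand higher in every EpiLC library than in any stem cell library, Nanog, Tfcp2l1, Klf4, Esrrb, Zfp42 and Sox2 stand lower, and Pou5f1 lies close to its stem cell level.

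With origin as a covariate, 1359 genes (10.4% of those tested) were higher in EpiLC and 1508 (11.6%) were lower. Within the gPSC4 origin 1453 genes (11.2%) were higher and 1468 (11.3%) lower in EpiLC than in gPSC4, and within the ESC origin 1374 (10.6%) were higher and 1618 (12.4%) lower in EpiLC than in ESC. The same direction in both origins was called for 1106 higher genes (8.50% of all tested) and 1253 lower genes (9.63%). The shared genes made up 76.1% of the higher and 85.4% of the lower calls of the gPSC4 origin, and 80.5% of the higher and 77.4% of the lower calls of the ESC origin. The first principal component held 78.6% of the variance between the 12 libraries and separated EpiLC from stem cells. Pearson's r across genes was at least 0.981 between EpiLC libraries and at least 0.985 between stem cell libraries, and lay between 0.894 and 0.902 for an EpiLC library with a stem cell library. The median difference over all genes tested was 0.005, and the differences had a Spearman's rho of -0.062 across genes with coding length.

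**Figure D2:**
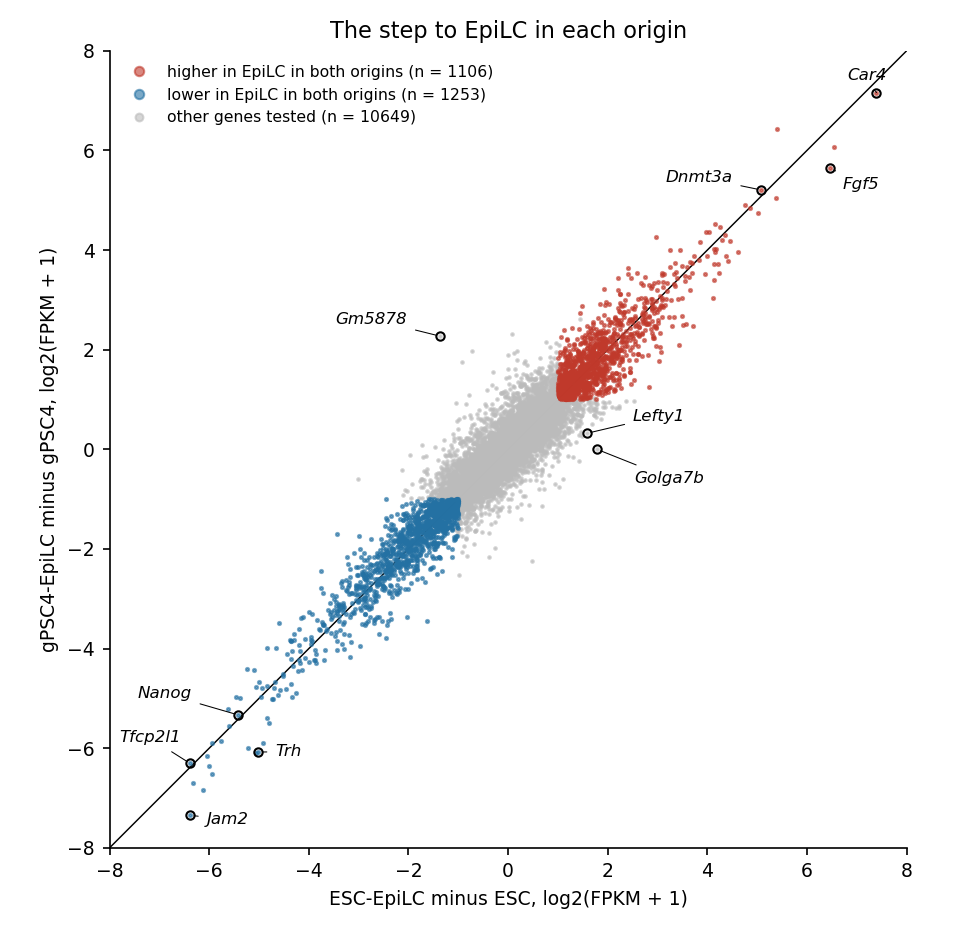
Difference between EpiLC and stem cells for each of the 13008 genes tested, in the gPSC4 origin (vertical axis) and in the ESC origin (horizontal axis), both in log2(FPKM + 1), with the line of equal differences. For 82.4% of the 1106 and 1253 genes called the same way in both origins the 2 differences lie within 0.5 of each other, and the others are up to 1.83 apart. Gm5878, Golga7b, Lefty1 and Trh are the 4 genes called for a difference between origins. Trh is also among the 1253, and distance from the line alone does not set the 4 apart.

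Fibroblast transcripts moved with the step. Mouse embryonic fibroblasts (MEF) are the usual feeder layer of stem cell cultures, and 2 MEF libraries of the study, normalized in tables of their own, served as a guide to such transcripts. The 24 genes of a fibroblast list summed to 177.2, 211.2 and 240.1 FPKM in EpiLC (lowest, median and highest), against 934.5, 1140 and 1254 FPKM in stem cells. For the 22 of them with at least 10 FPKM in both MEF libraries, the median level in a library was 0.37% to 0.752% of the MEF level in EpiLC and 3.02% to 4.13% in stem cells. Col1a1, the main chain of fibrillar collagen I, had 3.1, 4.13 and 6.03 FPKM in EpiLC against 97.1, 122 and 137 FPKM in stem cells, and in the MEF libraries it had 4182 and 5157 FPKM. None of the fibroblast list rose and 18 of 23 tested fell, with a median difference of -2.42 against 0.005 for all genes. In bulk RNA, fewer fibroblasts and less fibroblast RNA per cell cannot be told apart. The 4 Y-linked genes examined, which a female line cannot express, summed to 0, 0.914 and 1.35 FPKM in EpiLC against 2.9, 4.94 and 5.59 FPKM in stem cells, and Ddx3y stood at 0 and 12 FPKM in the 2 MEF libraries. The part of fibroblast RNA in the differences below was not tested.

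Genes abundant in MEF were therefore set apart, by the rule of at least 10 FPKM in each MEF library and at least 3 times the stem cell mean. The rule took 666 of the tested genes (5.12%). Among them 74 rose (11.1%) and 114 fell (17.1%), against 8.36% and 9.23% of the other genes, and their median difference was -0.13. Without them 1032 genes rose (7.93% of all tested) and 1139 fell (8.76%). Genes abundant in MEF are named as such where they appear below.

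**Figure D3:**
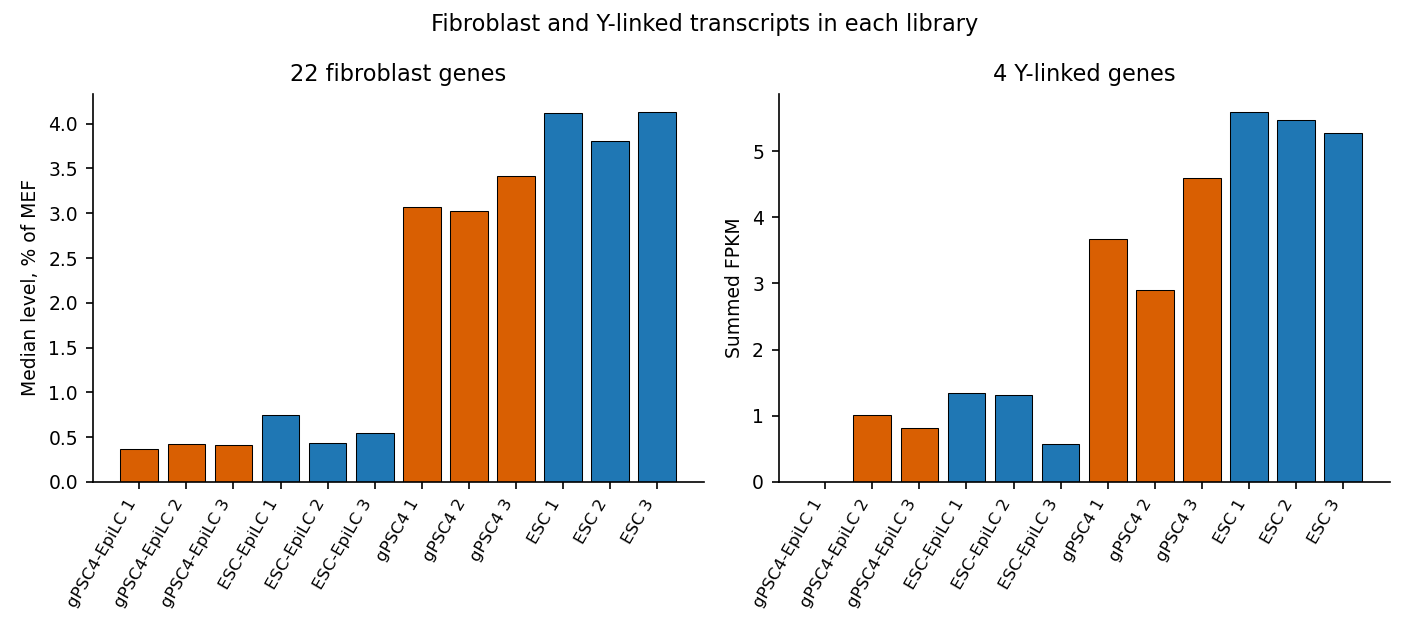
Fibroblast genes (left, median level of 22 genes as a percentage of their MEF level) and Y-linked genes (right, summed FPKM of 4 genes) in each of the 12 libraries, coloured by origin. All 6 EpiLC libraries stand below 1% of the MEF level and below every stem cell library in both panels.

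Most naive network genes fell. Of 20 naive genes tested, 17 fell and none rose, against 9.63% and 8.50% of all genes, and the median difference was -3.16. Tcl1, a co-activator of the kinase AKT, had 0.70, 2.22 and 4.82 FPKM in EpiLC against 252, 279 and 334 FPKM in stem cells and fell by 6.48. Tbx3, a T-box factor that sustains self-renewal, had 0.239, 0.566 and 0.96 FPKM in EpiLC against 99.2, 114 and 121 FPKM in stem cells. Klf4, a Krüppel-like factor downstream of LIF, had 0, 0.40 and 2.04 FPKM in EpiLC against 46.7, 51.8 and 58.1 FPKM in stem cells. In none of these 3 genes did an EpiLC library exceed 4.82 FPKM. No EpiLC library overlapped a stem cell library, as for 43.7% of all genes tested. The choice of Tcl1 and Tbx3 among the largest falls required this. Esrrb, an orphan nuclear receptor, had 1.57, 2.88 and 6.29 FPKM in EpiLC against 103, 116 and 125 FPKM in stem cells, a difference of -4.84 ± 0.19. Zfp42 (Rex1), a common reporter of the naive state, kept 42.9, 48 and 57 FPKM in EpiLC against 236, 247 and 267 FPKM in stem cells. Prdm14, a repressor of the methylation machinery and of FGF signalling, was at or under 0.878 FPKM in EpiLC against at least 19.2 FPKM in stem cells. The 3 members not called were Gbx2 (0.35 ± 0.12), Fgf4 (0.068 ± 0.10) and Dppa3 (-0.32 ± 0.14), whose libraries overlapped between EpiLC and stem cells. Fgf4, the FGF ligand that stem cells make themselves, had 308, 327 and 386 FPKM in EpiLC against 215, 336 and 375 FPKM in stem cells.

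Of 12 core pluripotency genes tested Utf1 rose and Nanog and Sox2 fell, against 8.50% and 9.63% of all genes. With origin as a covariate 1 was higher and 3 were lower, and the list's median difference was -0.28. Utf1, a chromatin-associated factor of the epiblast, had 636, 692 and 723 FPKM in EpiLC against 126, 175 and 194 FPKM in stem cells. Sox2, the usual partner of Oct4, had 3.98, 7.84 and 11 FPKM in EpiLC against 26.9, 29.7 and 31.6 FPKM in stem cells, a difference of -1.95 ± 0.19 with an adjusted p of 3.4e-07. Every EpiLC library had less Sox2 than every stem cell library, while Pou5f1 kept most of its level. Dppa2, which with Dppa4 keeps developmental promoters open, was not called at 0.93 ± 0.056, although its EpiLC libraries (162, 190.4 and 212 FPKM) lay above its stem cell libraries (89.9, 97 and 106 FPKM).

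The formative genes moved the other way. Of 23 tested, 14 rose and 2 fell, or 14 and 1 under quantile normalization, with a median difference of 2.27. Dnmt3a, a de novo DNA methyltransferase, had 350.4, 368 and 391 FPKM in EpiLC against 8.97, 9.36 and 10.1 FPKM in stem cells, a difference of 5.14 ± 0.053. Pim2, a serine/threonine kinase, had 741, 931 and 1115 FPKM in EpiLC against 21.3, 24.2 and 26.2 FPKM in stem cells. Pou3f1 (Oct6), a POU factor of the early postimplantation epiblast, had 15.7, 19.1 and 26.1 FPKM in EpiLC against 0.0294, 0.368 and 0.629 FPKM in stem cells. None of these 3 genes overlapped between the groups, as for 43.7% of all genes tested. The choice of Dnmt3a and Pim2 among the largest rises required this. Otx2, the homeobox factor that directs Oct4 to new enhancers, had 39.5, 43.5 and 62.2 FPKM in EpiLC against 3.25, 3.76 and 8.18 FPKM in stem cells. Its difference was 2.52 in the gPSC4 origin and 3.57 in the ESC origin, with an adjusted p of 0.31 for the difference between them. Lefty2 and Fst, inhibitors of Nodal and activin that are also members of the list, fell by 3.46 and 1.29. Dnmt3l, the cofactor of the de novo methyltransferases, was not called (-0.25 ± 0.081), and Zic2 and Foxd3 stayed at or under 2.37 FPKM in every library.

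Genes outside these networks were also among the largest rises. Car4, a membrane-anchored carbonic anhydrase, had 138, 161 and 201 FPKM in EpiLC against 0, 0.065 and 0.131 FPKM in stem cells, the largest difference among the named genes (7.28 ± 0.10). Enpp2 (autotaxin), which makes the signalling lipid lysophosphatidic acid, had 65.7, 94.3 and 118 FPKM in EpiLC against 0.135, 0.53 and 1.31 FPKM in stem cells. Enpp3, an ectonucleotidase of the same family, had 144, 153 and 164 FPKM in EpiLC against 3.32, 4.24 and 5.81 FPKM in stem cells. The largest rises were ranked only among genes without overlap between the groups, so the separation of these 3 enzymes was set by the choice. Wt1, a zinc-finger factor of kidney and gonad, had 28.9, 34.4 and 44.3 FPKM in EpiLC against 0.0593, 0.235 and 0.719 FPKM in stem cells. Il10, an anti-inflammatory cytokine, had 19.1, 25 and 33.9 FPKM in EpiLC against 0, 0.349 and 0.693 FPKM in stem cells. Tmem54, Mmp25 (a membrane-anchored matrix metalloproteinase), Kcnk1 (a potassium channel), Cldn5 (a claudin) and Prss50 (a serine protease known from testis) had differences of 6.3, 4.88, 4.33, 4.36 and 4.24.

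The largest falls included junction and signalling proteins of the stem cells. Jam2, a junctional adhesion molecule, had 0.429, 1.75 and 3.32 FPKM in EpiLC against 265, 284 and 339 FPKM in stem cells, a difference of -6.87 ± 0.24. Pdgfa, a platelet-derived growth factor, had 2.91, 3.73 and 4.68 FPKM in EpiLC against 193, 229.8 and 243 FPKM in stem cells. The largest falls too were ranked only among genes without overlap between the groups, so the separation of both genes was set by the choice. Ubd, a ubiquitin-like modifier, Mras, a Ras-related GTPase, and Ly6g6e fell by 6.51, 6.1 and 5.81. Ctsk (cathepsin K), a collagen-degrading protease, fell by 5.41 and was at 34.8 and 79.9 FPKM in MEF, below 3 times its stem cell mean and so not set apart.

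Markers of other lineages moved in both directions. Of 7 primitive streak genes tested Wnt3, a ligand of the streak, rose and 3 fell, among them T (Brachyury), with 0.105, 0.393 and 0.733 FPKM in EpiLC against 2.67, 3.78 and 4.85 FPKM in stem cells. The other 7 of the 14 streak genes, Foxa2 and Mesp1 among them, never reached 1 FPKM in 3 libraries. Cdx1, a caudal homeobox factor and Wnt target, had 0.132, 1.09 and 2.24 FPKM in EpiLC against 49.5, 104 and 143 FPKM in stem cells, and made up most of the streak list's sum of 62.69 to 157.2 FPKM in stem cells. Of 7 neural genes tested 2 rose and none fell, or 1 rose under quantile normalization, and the list summed to 95.59, 126.6 and 138.3 FPKM in EpiLC against 93.7, 131.2 and 138.2 FPKM in stem cells. The 2 were Pax6 and Nes, a neural factor and an intermediate filament of neural progenitors, which rose by 1.72 and 1.04 with at most 5.09 and 3.05 FPKM in EpiLC, and Nes is abundant in MEF. Of 10 extraembryonic endoderm genes tested, 4 of them abundant in MEF, 5 fell and none rose, while Gata6, Hnf4a, Afp and Ttr stayed under 1 FPKM in all 12 libraries. Sox7, an endoderm factor, had 0.093, 0.289 and 0.574 FPKM in EpiLC against 4.17, 5.11 and 6.02 FPKM in stem cells. Of 9 trophoblast genes tested 2 rose and 4 fell, or 1 and 4 under quantile normalization. Hand1, a helix-loop-helix factor, had 0.734, 1.04 and 2.65 FPKM in EpiLC and was listed at 0 in all 6 stem cell libraries, and Krt7, a keratin, rose by 1.22 ± 0.17. Tead4 and Tfap2c, transcription factors, fell by 3.56 and 3.38, and Elf5, a defining trophoblast gene, was at 0 in all 12 libraries. Of the two-cell-like list 2 genes could be tested, and neither was called.

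Germ cell genes also split. Mael, a protein of the piRNA pathway, had 19.1, 24.5 and 30.1 FPKM in EpiLC against 0.799, 1.26 and 2.41 FPKM in stem cells, a difference of 3.42 ± 0.17. Sycp3, a component of the meiotic synaptonemal complex, had 16.1, 19.7 and 26.5 FPKM in EpiLC against 3.36, 4.74 and 5.82 FPKM in stem cells, a difference of 1.94 ± 0.17. These were the 2 of 12 germ cell genes that rose, and 3 fell, against 8.50% and 9.63% of all genes. Kit, the receptor of stem cell factor, had 6.06, 8.76 and 11.3 FPKM in EpiLC against 57.8, 64.1 and 69.4 FPKM in stem cells, and Prdm1 (Blimp1) and Tfap2c, factors of germ cell specification, fell by 1.74 and 3.38. Ddx4 (0.84) and Stk31 (0.97) were not called, although no EpiLC library overlapped a stem cell library, as for 43.7% of all genes tested. The 250 bases before the start of each gene were searched for the palindromic E-box CACGTG in the RefSeq promoter table (GRCm38.p6), which held 10203 of the tested genes and 9 of the 12 germ cell genes. The motif and the list were picked with the levels known. It was found for 4 of the 9 germ cell genes (Mael, Sycp3, Ddx4 and Stk31), 10.1% of tested genes, 10.5% of genes that rose, 9.05% of genes that fell and 6.86% of all 27025 genes of the table. A match is a description of the letters and no evidence of binding. The sequences of the 2 members that rose follow, 5′ to 3′ on the gene's strand, with the E-box in capitals, for Mael at chr1:166238745-166238994 (minus strand) and Sycp3 at chr10:88459337-88459586 (plus strand).
Mael: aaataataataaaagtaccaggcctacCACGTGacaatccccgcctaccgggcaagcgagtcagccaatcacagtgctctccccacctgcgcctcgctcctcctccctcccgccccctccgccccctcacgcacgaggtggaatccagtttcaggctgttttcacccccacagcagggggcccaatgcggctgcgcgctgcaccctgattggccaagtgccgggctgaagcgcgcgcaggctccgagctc
Sycp3: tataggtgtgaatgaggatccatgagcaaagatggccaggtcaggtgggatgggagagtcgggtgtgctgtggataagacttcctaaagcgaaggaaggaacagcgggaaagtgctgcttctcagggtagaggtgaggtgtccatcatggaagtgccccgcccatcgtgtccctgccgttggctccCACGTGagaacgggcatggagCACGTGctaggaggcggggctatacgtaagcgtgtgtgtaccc

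Tight junction genes rose in part. Of 22 listed tight junction and polarity genes tested 10 rose and none fell, against 8.50% and 9.63% of all genes, with a median difference of 0.90. These counts depend on the members listed. Outside the list the junctional adhesion molecule Jam2 fell (-6.87) and the claudin Cldn5 rose (4.36), as given above. Cldn6, a claudin of early epithelia, had 289, 308 and 362 FPKM in EpiLC against 11.3, 15.6 and 16.7 FPKM in stem cells, and counts in the formative list too. Cldn7, another claudin, had 117, 129 and 146 FPKM in EpiLC against 9.79, 12.3 and 14.9 FPKM in stem cells. Cgn (cingulin), a cytoplasmic plaque protein of the junction, had 17.1, 25.9 and 29.1 FPKM in EpiLC against 4.04, 5.47 and 6.48 FPKM in stem cells. No library of these 3 genes overlapped between the groups, as for 43.7% of all genes tested. The choice of Cldn6 among the largest rises required this. Cldn9 and Cgnl1, a paralogue of cingulin, rose by 2.27 and 2.59, with some overlap between libraries for Cldn9. The scaffold genes Tjp1 (0.52, abundant in MEF) and Tjp3 (-0.23) were not called.

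Cadherins and their partners moved in both directions, 4 up and 4 down of 20 tested, against 8.50% and 9.63% of all genes. Their median was -0.27. Cdh1 (E-cadherin), the epithelial cadherin of both states, was not called (0.70 ± 0.056), yet every EpiLC library (206, 213 and 219 FPKM) lay above every stem cell library (110.2, 132 and 145 FPKM). Cdh2 (N-cadherin) was low in both, with 2.56, 3.76 and 6.28 FPKM in EpiLC against 5.83, 8.29 and 10.8 FPKM in stem cells. Its difference of -0.94 ± 0.17 was not called, while within origins it was called lower for ESC (-1.1) and not called for gPSC4 (-0.78). The difference was past the size needed without gPSC4-EpiLC library 2 (-1.09) or gPSC4 library 1 (-1.02). Epcam, an epithelial adhesion molecule, had 411, 434 and 454 FPKM in EpiLC against 97.3, 105 and 127 FPKM in stem cells. Pcdh1, a protocadherin, rose by 3.93 ± 0.16, and Cdh3 (P-cadherin), abundant in MEF, rose by 2.8 ± 0.14. Jup (plakoglobin), a catenin of junctions and desmosomes, had 21.5, 24.4 and 28.1 FPKM in EpiLC against 117, 139.7 and 169 FPKM in stem cells. Cdh11, a mesenchymal cadherin abundant in MEF, fell by 2.33, while beta-catenin (Ctnnb1) differed by -0.16.

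Matrix genes fell in part. Of 20 basement membrane and matrix genes tested 11 fell and none rose, with a median of -1.12, and of the 12 not abundant in MEF 6 fell, with a median of -1.10. Spp1 (osteopontin), a secreted ligand of integrins, had 270.4, 315 and 347 FPKM in EpiLC against 2766, 3024 and 3387 FPKM in stem cells. Lama1, a laminin chain, had 0.264, 0.376 and 0.63 FPKM in EpiLC against 5.91, 7.09 and 7.46 FPKM in stem cells. Both stood lower in every EpiLC library and neither is abundant in MEF. Fn1 (fibronectin) and Nid1 (nidogen), both abundant in MEF, fell by 2.86 and 2.75, alongside the fibroblast sums given above, whose part in these falls was not tested. Of 19 integrin genes tested, 9 of them abundant in MEF, 2 rose and 3 fell, against 8.50% and 9.63% of all genes. Itga3, a laminin-binding integrin chain, had 17, 20.7 and 23 FPKM in EpiLC against 1.36, 1.94 and 2.6 FPKM in stem cells, and Fermt1 (kindlin-1), an activator of integrins, rose by 2.08 ± 0.16. Itga5, the fibronectin receptor chain and abundant in MEF, and Itgb7 fell by 1.46 and 1.68, while Itgb1, the common beta chain and abundant in MEF, was not called (0.21).

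Of 14 genes of the mesenchymal transition list tested, the 2 that rose were Esrp1, an epithelial splicing regulator with 16.3, 21.4 and 22.9 FPKM in EpiLC against 0.957, 1.24 and 2.13 FPKM in stem cells, and Grhl1, an epithelial factor. The 6 that fell included Vim (vimentin, abundant in MEF), Snai1 (a repressor of E-cadherin), Ncam1 (a neural adhesion molecule) and Grhl3 (an epithelial factor related to Grhl1), with differences of -2.01, -2.0, -1.98 and -1.83. Epithelial factors of the list thus moved both ways. Snai1 had 0.414, 2.44 and 4.47 FPKM in EpiLC against 6.89, 11.2 and 16.8 FPKM in stem cells. In the 2 MEF libraries Snai1 had 45.1 and 30.0 FPKM and Ncam1 65.1 and 58.9 FPKM. That was above all their stem cell libraries but short of the rule, so neither was set apart. Guidance molecules of the ephrin and semaphorin families moved both ways, with 6 up and 7 down of 28 tested and a median of 0.01. Sema6a, a membrane semaphorin, had 65.2, 73.4 and 80.5 FPKM in EpiLC against 2.5, 3.26 and 4.94 FPKM in stem cells, and Sema3e, a secreted one, rose by 4.19 ± 0.14. Among the Eph receptors Epha1 rose by 2.35 and Epha4 fell by 2.21, and the ligand Efna3 fell by 2.64.

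**Figure D4:**
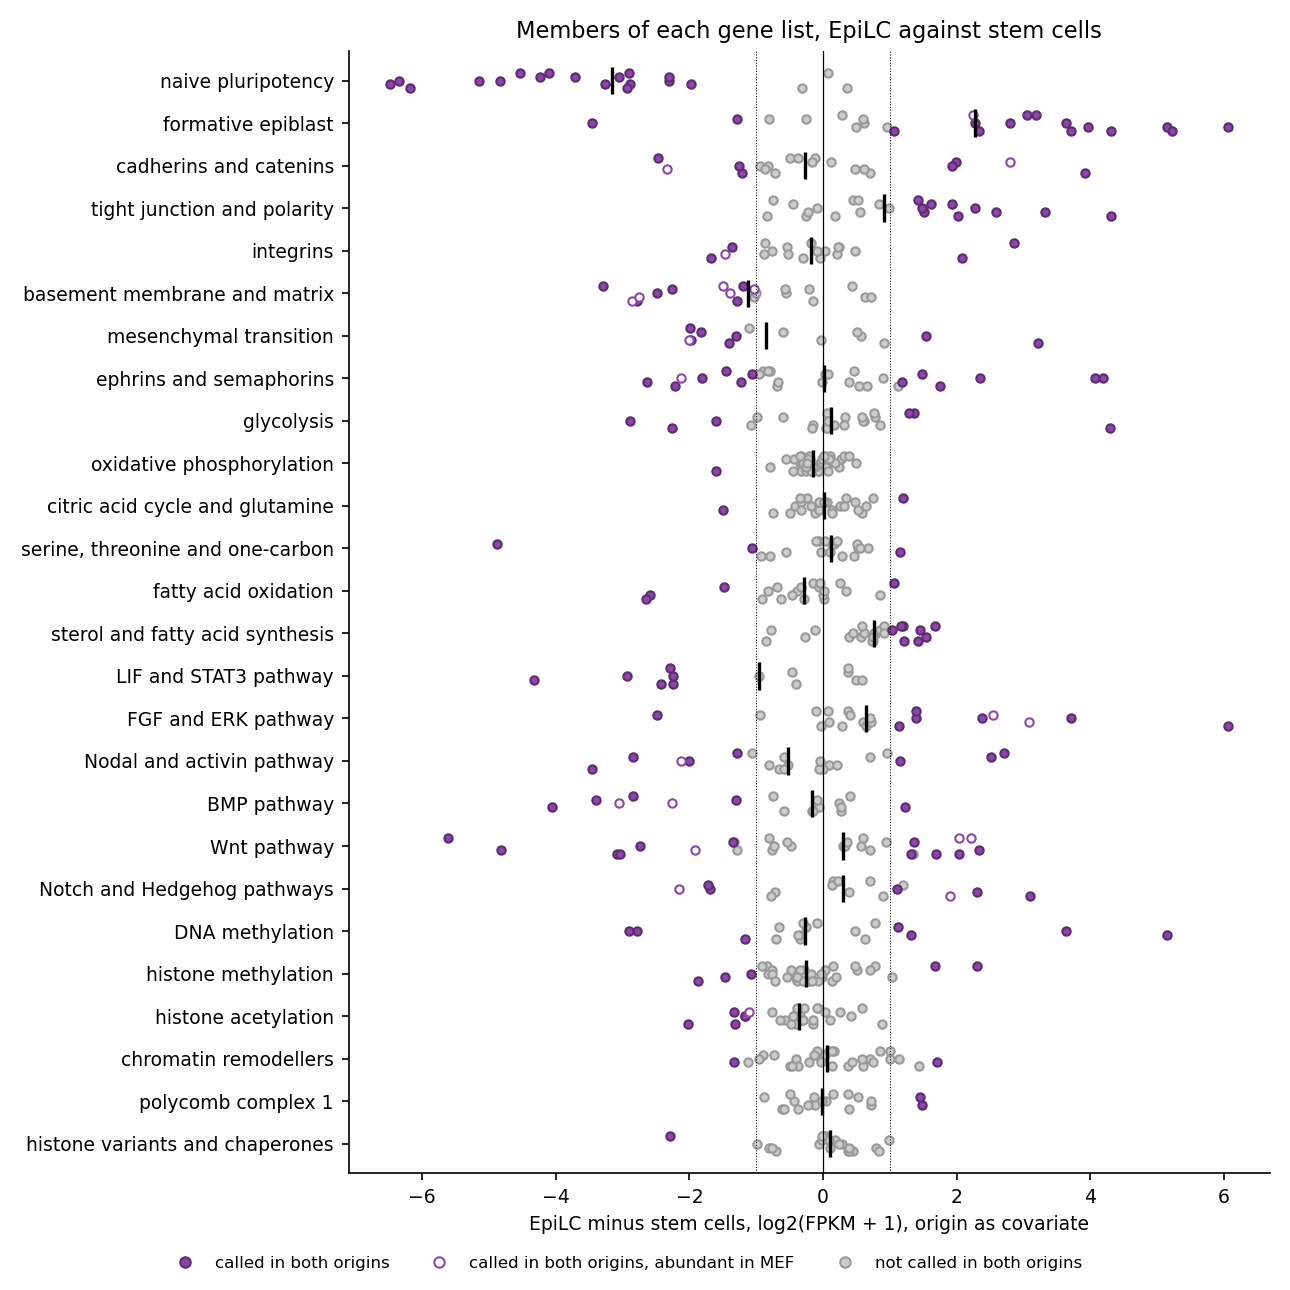
Difference between EpiLC and stem cells in log2(FPKM + 1) for each tested member of 26 gene lists, where filled points were called the same way in both origins, open points likewise but abundant in MEF, grey points were not called in both, bars are list medians and dotted lines mark a difference of 1 in either direction. Naive genes spread to the left and formative and tight junction genes to the right, and the oxidative phosphorylation points lie between the dotted lines but for Cox7a1.

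Of 24 glycolysis genes tested, transporters of lactate and glucose included, 3 rose and 3 fell, against 8.50% and 9.63% of all genes, with a median of 0.12. Slc16a3 (MCT4), a lactate exporter, had 393, 423 and 456 FPKM in EpiLC against 15.7, 20.6 and 29.3 FPKM in stem cells, a difference of 4.29 ± 0.11. Slc2a3 (GLUT3), a high-affinity glucose importer, had 148, 189.7 and 262 FPKM in EpiLC against 1255, 1472 and 1638 FPKM in stem cells, a difference of -2.89 ± 0.07. Slc2a1 (GLUT1), the other main glucose importer, was not called and had 334, 371 and 412 FPKM in EpiLC against 278, 292 and 329 FPKM in stem cells. For both the exporter and Slc2a3 no EpiLC library overlapped a stem cell library, as for 43.7% of all genes tested. The choice of the exporter among the largest rises required this. Pfkp and Hk1, isoforms of phosphofructokinase and hexokinase, fell by 2.26 and 1.6, and Eno3, an enolase, rose by 1.36. Ldha, which makes lactate, also rose, with 2213, 2226 and 2396 FPKM in EpiLC against 854, 912 and 1017 FPKM in stem cells. Gapdh (0.056), Pgk1 (0.073), Pkm (0.32) and Hk2 (-0.60) were not called.

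Respiratory chain genes were almost all below the size needed for a call. Of 40 oxidative phosphorylation genes tested Cox7a1, a muscle-type subunit of cytochrome oxidase, was the only one called, with 6.27, 8.64 and 13.3 FPKM in EpiLC against 24.4, 30.2 and 34.4 FPKM in stem cells. The list's median was -0.15, and 22 of its members were lower and 7 higher at an adjusted p under 0.05 whatever the size, against 33.7% and 34.0% of all genes. In the citric acid cycle 1 of 25 genes tested rose and 1 fell, against 8.50% and 9.63% of all genes. Suclg2, a subunit of succinyl-CoA synthetase, rose by 1.2 ± 0.064 and Idh2, the mitochondrial NADP-dependent isocitrate dehydrogenase, fell by 1.5. Tdh, the threonine dehydrogenase on which mouse embryonic stem cells depend, had 14.1, 22.1 and 27.3 FPKM in EpiLC against 596, 665 and 706 FPKM in stem cells, a difference of -4.88 ± 0.10. Mthfd2, a mitochondrial folate enzyme, had 316, 363 and 400.3 FPKM in EpiLC against 158, 159.7 and 165 FPKM in stem cells and rose. Of 20 serine, threonine and one-carbon genes 1 rose and 2 fell, or 0 and 2 under quantile normalization, where the call of Mthfd2 in both origins was lost. The other that fell was Amt, a glycine cleavage enzyme, at -1.07 ± 0.11 and at -0.99, under the size needed, without gPSC4-EpiLC library 3. Of 21 fatty acid oxidation genes 3 fell and 1 rose, against 9.63% and 8.50% of all genes, with a median of -0.29. Cpt1a, the gatekeeper of fatty acid entry into mitochondria, had 2.83, 3.73 and 6.22 FPKM in EpiLC against 24.1, 29.1 and 32.3 FPKM in stem cells. Slc25a20, the carnitine carrier of the same route, had 17.6, 18.3 and 21.2 FPKM in EpiLC against 103, 126 and 143 FPKM in stem cells. Cpt2, the last enzyme of that entry route, rose by 1.07 ± 0.13, though by 0.98, under the size needed, without gPSC4 library 2.

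Sterol synthesis genes rose in part. Of 25 sterol and fatty acid synthesis genes tested 8 rose and none fell, with a median of 0.76 against 0.005 for all genes. For 21 of the 25 every EpiLC library lay above every stem cell library, as it did for 21.4% of all genes, and the list summed to 5054, 5286 and 5459 FPKM in EpiLC against 2995, 3104 and 3276 FPKM in stem cells. Lss (lanosterol synthase) had 226, 245 and 273 FPKM in EpiLC against 69.6, 76.6 and 80.4 FPKM in stem cells, a difference of 1.68 ± 0.046. Idi1, Fdps and Mvd, enzymes that build isoprenoid units, had medians of 310.3, 562 and 184 FPKM in EpiLC against 109, 206 and 68.3 FPKM in stem cells. Elovl6, a fatty acid elongase, rose by 1.22 ± 0.06. The 2 members with all EpiLC libraries below all stem cell libraries were Scd1, a fatty acid desaturase (-0.85), and Srebf1, a regulator of lipid genes (-0.78), neither called. Srebf2, the regulator of cholesterol genes, was not called (0.58).

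The LIF pathway fell at several levels. Of 13 genes tested 6 fell and none rose, with a median of -0.96. The receptor chain Lifr had 4.2, 5.87 and 6.83 FPKM in EpiLC against 25.7, 32.5 and 34.1 FPKM in stem cells. Its partner Il6st (gp130) had 5.99, 6.53 and 8.56 FPKM in EpiLC against 32, 36.2 and 38 FPKM in stem cells. Both chains were lower in every EpiLC library. Stat3, the transcription factor of the pathway, had 8.77, 12.6 and 17 FPKM in EpiLC against 92, 102 and 108 FPKM in stem cells. Socs3, a target and feedback inhibitor of STAT3, had 7.53, 9.2 and 11.5 FPKM in EpiLC against 198, 211 and 217 FPKM in stem cells, a difference of -4.33 ± 0.089. Receptors, transducer and target thus all stood lower in every EpiLC library. Osmr, the oncostatin M receptor, fell by 2.43, while the kinase Jak1 was not called (-0.47).

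The FGF and ERK genes rose in part. Of 21 tested 8 rose and 1 fell, with a median of 0.65. Beside Fgf5 the ligand Fgf15 rose, with 22.4, 31.1 and 43.4 FPKM in EpiLC against 0.42, 1.89 and 2.49 FPKM in stem cells, and Fgf17 fell, with 0, 1.97 and 3.45 FPKM in EpiLC against 9.14, 15 and 20.0 FPKM in stem cells. Egr1, an immediate early target of ERK that is abundant in MEF, had 8.29, 11.5 and 16.6 FPKM in EpiLC against 0.458, 1.1 and 1.91 FPKM in stem cells. Dusp5, a phosphatase of nuclear ERK also abundant in MEF, had 15.1, 25.4 and 33.5 FPKM in EpiLC against 0.658, 1.19 and 9.55 FPKM in stem cells. Both rose, and the part of fibroblast RNA in their levels was not tested. Dusp6, the phosphatase of cytoplasmic ERK, had 299, 339 and 369 FPKM in EpiLC against 56.3, 66 and 66.4 FPKM in stem cells. Other feedback genes were not called, with differences of -0.11 for Spry2, -0.033 for Spry4, 0.28 for Etv4 and 0.082 for Etv5.

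Nodal and activin genes moved both ways. Of 21 tested 3 rose and 5 fell, against 8.50% and 9.63% of all genes, with a median of -0.52. Nodal itself was not called (-0.81 ± 0.11), with 40.6, 50.1 and 63.6 FPKM in EpiLC against 74.7, 91.3 and 114 FPKM in stem cells. Lefty2, its secreted inhibitor and target, had 22.4, 28.2 and 38.5 FPKM in EpiLC against 274, 328 and 403 FPKM in stem cells. Skil (SnoN), a repressor of SMAD targets, had 65.3, 79.2 and 80.6 FPKM in EpiLC against 9.16, 10.7 and 12.45 FPKM in stem cells. Lefty2 stood lower and Skil higher in every EpiLC library. The activin subunit genes Inhba, abundant in MEF, and Inhbb fell by 2.12 and 2.85, and Smad2, the transducer, was at -0.065. Fst (follistatin), which binds activin, fell by 1.29 with 1.28 to 13.5 FPKM in EpiLC against 10.1 to 15.7 FPKM in stem cells, groups that overlap.

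Of 17 BMP pathway genes tested, 4 of them abundant in MEF, 6 fell and 1 rose, against 9.63% and 8.50% of all genes. Their median was -0.16. Id3, an inhibitor of helix-loop-helix factors, had 10.4, 23.3 and 32.8 FPKM in EpiLC against 330.2, 366 and 415 FPKM in stem cells. Id1, of the same family and like Id3 a target of BMP, had 1.1, 1.35 and 2.73 FPKM in EpiLC against 14.9, 17.5 and 22.7 FPKM in stem cells. Bmp4, the ligand that later induces germ cells, had 0.547, 1.27 and 1.8 FPKM in EpiLC against 11.3, 16.8 and 23 FPKM in stem cells, and it is abundant in MEF. Grem1, a secreted BMP antagonist, fell by 3.4, and Id4, also abundant in MEF, by 2.27. Id2 was not called (0.27 ± 0.14), with 30.1, 41.6 and 66.9 FPKM in EpiLC against 30.6, 35.2 and 44.2 FPKM in stem cells, groups that overlap. Receptor genes Bmpr1a (-0.15) and Bmpr2 (0.23, abundant in MEF) were not called. Id3 and Id1 are not abundant in MEF by the rule.

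Wnt pathway genes moved both ways. Of 29 Wnt genes 7 rose and 7 fell, against 8.50% and 9.63% of all genes. Their median was 0.30, or -0.51 over the 24 not abundant in MEF. Sp5, a direct target, was listed at 0 in all 6 EpiLC libraries against 13.7, 28.2 and 41.3 FPKM in stem cells. Axin2, a target and feedback inhibitor, had 0, 0.363 and 1.06 FPKM in EpiLC against 10.2, 10.5 and 11.3 FPKM in stem cells. Notum, a secreted enzyme that inactivates Wnt ligands, had 0, 0.852 and 1.53 FPKM in EpiLC against 47.8, 81.2 and 117 FPKM in stem cells. For these 3 genes no EpiLC library exceeded 1.53 FPKM. Nkd1, another feedback inhibitor, rose by 1.36 ± 0.16. Porcn, which acylates Wnt ligands for secretion, and the receptor Fzd5 fell by 3.05 and 2.74. Lef1, a transcription factor of the pathway and a formative marker, had 107, 129 and 134 FPKM in EpiLC against 18.1, 24.1 and 29.9 FPKM in stem cells, and rose. In the Notch and Hedgehog lists 4 of 16 rose and 3 fell. Dll1, a Notch ligand, had 9.38, 16.2 and 18.7 FPKM in EpiLC against 0.0424, 0.734 and 2.08 FPKM in stem cells, and Dll3, a related protein, rose by 2.31 ± 0.24. Jag1, another Notch ligand and abundant in MEF, fell by 2.16, Gli2, a Hedgehog transcription factor, fell by 1.72, and Smo, the Hedgehog transducer and abundant in MEF, rose by 1.9.

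**Figure D5:**
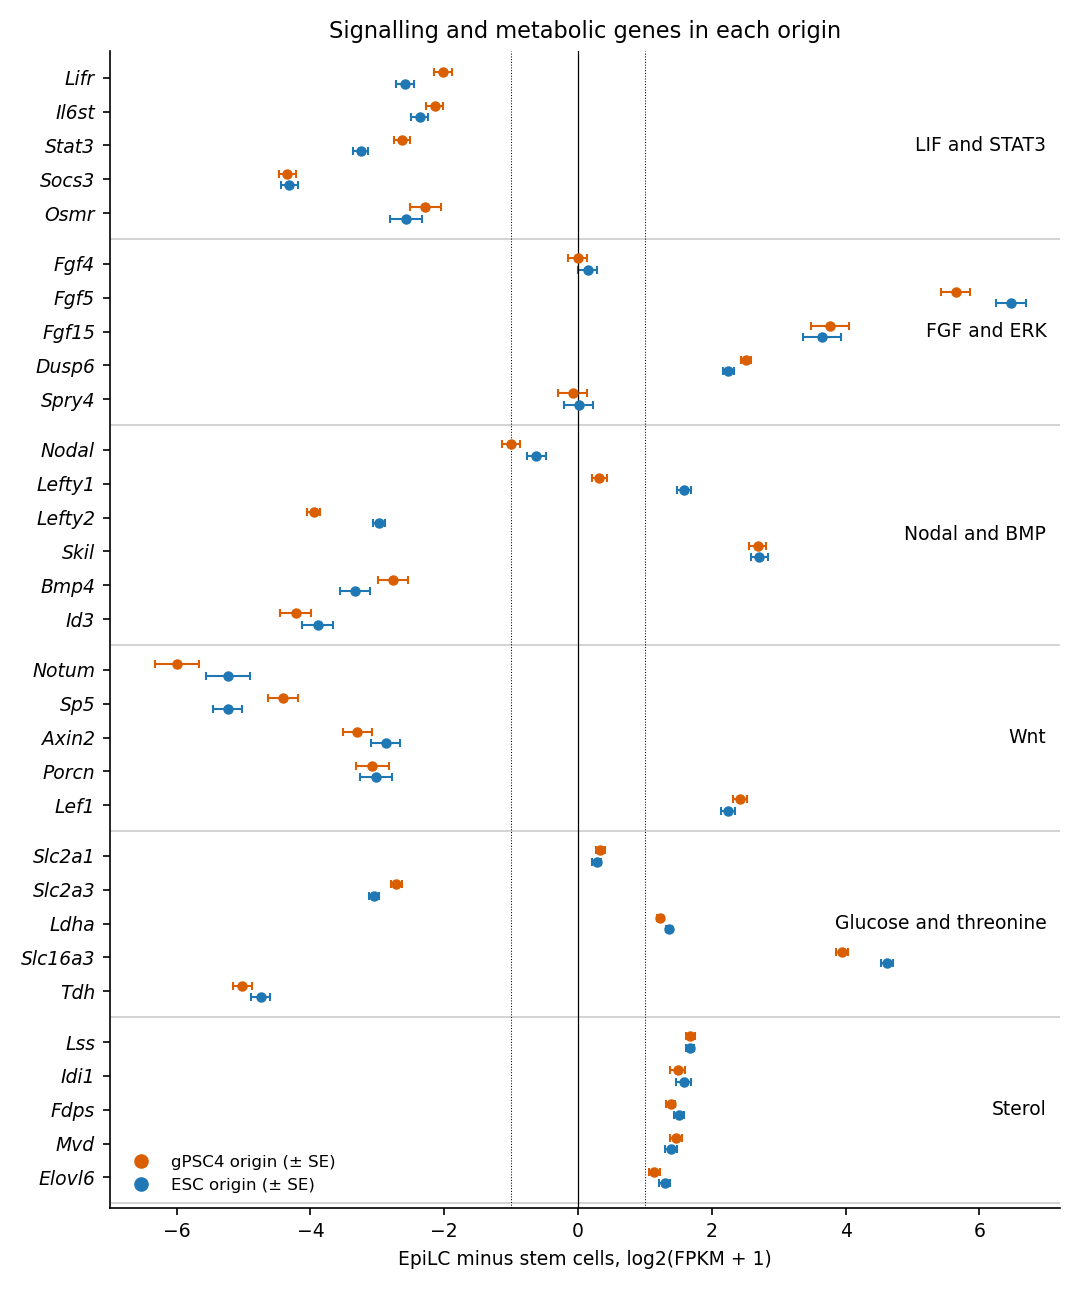
Difference between EpiLC and stem cells in log2(FPKM + 1), with its SE, for 31 signalling and metabolic genes in the gPSC4 origin and in the ESC origin (3 EpiLC against 3 stem cell libraries each). LIF receptor and STAT3 genes and the Wnt genes Notum, Sp5, Axin2 and Porcn lie left of the dotted line at -1 in both origins. The Wnt gene Lef1 and the sterol genes lie right of the line at 1. Lefty1 is the gene whose origins lie farthest apart for its error.

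DNA methylation genes moved both ways. Of 18 tested 4 rose and 3 fell, against 8.50% and 9.63% of all genes, with a median of -0.28. Dnmt3a and Dnmt3b rose as given above, while Dnmt1, the maintenance methyltransferase, was not called (-0.34 ± 0.062) with 40.7, 43.6 and 48.4 FPKM in EpiLC against 53.2, 55.7 and 60.9 FPKM in stem cells. Tet2, a methylcytosine dioxygenase, had 0.933, 2.18 and 3.84 FPKM in EpiLC against 15.9, 19.8 and 23.2 FPKM in stem cells. Tet1, the main dioxygenase of stem cells, was not called (-0.38 ± 0.07). Zfp57, a guardian of methylation at imprinted loci, had 48.6, 58.7 and 73.2 FPKM in EpiLC against 433, 458 and 478 FPKM in stem cells. Tet2 and Zfp57 stood lower in every EpiLC library, while Tet3, another dioxygenase, rose by 1.12 ± 0.15. Uhrf1, the maintenance cofactor, fell by 1.17, and Uhrf2, its relative, rose by 1.31 ± 0.17.

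Of 36 histone methylation genes tested 2 rose and 3 fell, shares near the 8.50% and 9.63% of all genes, with a median of -0.25. Setd7, a lysine methyltransferase, had 11, 13 and 18 FPKM in EpiLC against 0.931, 2.12 and 3.04 FPKM in stem cells. Suv39h2, an H3K9 methyltransferase, rose by 1.67 ± 0.22 and Kdm3a, an H3K9 demethylase, fell by 1.88. The polycomb complex 2 genes were not called, with differences of 0.20 for Ezh2, -0.83 for Eed and -0.73 for Suz12. Of 29 histone acetylation genes none rose and 6 fell, against 8.50% and 9.63% of all genes, with a median of -0.35. Kat6b, an acetyltransferase, had 3.46, 4.41 and 5.37 FPKM in EpiLC against 18.3, 21.5 and 24.5 FPKM in stem cells, and the coactivator Ncoa3 and the deacetylases Sirt2 and Sirt6 fell by 1.34, 1.33 and 1.17. Of 32 chromatin remodellers 1 rose and 1 fell, against the same shares of all genes. Chd9, a chromodomain helicase, rose by 1.7 ± 0.14 and Smarcd3, a subunit of BAF complexes, fell by 1.33. The 1 remodeller that rose became 2 with median-ratio scaling and 4 under quantile normalization, and 5 were higher with origin as a covariate. Of 19 genes of polycomb complex 1 Phc1, a polyhomeotic subunit, had 204, 240.1 and 289 FPKM in EpiLC against 77.6, 86 and 94.1 FPKM in stem cells, and Yaf2 rose too. H2afy (macroH2A1), a histone variant of repressed chromatin, had 9.62, 14.3 and 15.9 FPKM in EpiLC against 60.6, 72.3 and 81.1 FPKM in stem cells and was the only 1 of 22 histone variant and chaperone genes to be called.

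Of 20 proliferation genes tested 1 rose and 2 fell, shares near the 8.50% and 9.63% of all genes. Ccne1 (cyclin E1), which drives entry into S phase, had 378, 399 and 417 FPKM in EpiLC against 112, 121 and 143 FPKM in stem cells. Cdkn1a (p21), a cyclin-dependent kinase inhibitor, had 312, 339.6 and 399.5 FPKM in EpiLC against 1149, 1213 and 1341 FPKM in stem cells. Ccnd3 (cyclin D3) fell by 1.54. Ccne1 stood higher and Cdkn1a lower in every EpiLC library, while Mki67, a marker of cycling cells and abundant in MEF, was at 0.029. Of 13 immediate early and stress genes tested Egr1, given above, rose, and 2 fell, Fos (a subunit of AP-1) by 1.59 and Asns (asparagine synthetase) by 1.61.

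Few differences between origins were called. The difference between the step in gPSC4 and the step in ESC was called for 4 genes (0.0308% of those tested), 1 higher and 3 lower, and 7 genes had an adjusted p under 0.05 whatever the size. At an unadjusted p under 0.05 there were 1128 of the 13008 genes tested, or 1420 with a replicate block. Some genes pass that threshold without any difference, so these counts do not number real differences. Nor do few calls with 3 libraries per group mean that other differences were absent. Lefty1, a secreted inhibitor of Nodal, had 49.4, 56 and 51.1 FPKM in gPSC4-EpiLC and 86.4, 90.1 and 111 FPKM in ESC-EpiLC, against 37.9, 43.8 and 43.1 FPKM in gPSC4 and 29.3, 31.1 and 33.1 FPKM in ESC. It was higher in EpiLC in the ESC origin (1.58) and not called in the gPSC4 origin (0.32), and the difference between the steps was -1.26 ± 0.15 with an adjusted p of 0.0047. Trh, the precursor of thyrotropin-releasing hormone, had 23, 27.9 and 23.7 FPKM in gPSC4-EpiLC and 55.1, 59.4 and 48.3 FPKM in ESC-EpiLC, against 1882, 1743 and 1603 FPKM in gPSC4 and 1821, 1756 and 1748 FPKM in ESC. It fell in both origins and farther in the gPSC4 origin, by a difference of -1.07 ± 0.12 with an adjusted p of 0.0047. Golga7b, named after its values were seen, was listed at 0 in the gPSC4-EpiLC libraries, had 2.44, 2.3 and 2.59 FPKM in ESC-EpiLC and was listed at 0 in all 6 stem cell libraries. Gm5878, a predicted gene named likewise, had 5.89, 6.07 and 1.97 FPKM in gPSC4-EpiLC and 0, 0 and 1.15 FPKM in ESC-EpiLC, against 0.285, 0 and 0 FPKM in gPSC4 and 1.36, 3.0 and 2.94 FPKM in ESC, and was the 1 gene called in opposite directions in the 2 origins. The call of Golga7b was lost, at adjusted p of 0.06 to 0.12, without any 1 of the gPSC4-EpiLC or ESC libraries or of gPSC4 libraries 1 and 3. Golga7b passed the filter of 1 FPKM in 3 libraries through the ESC-EpiLC libraries alone. Without any 1 of those it was not tested. The call of Gm5878 was lost, at adjusted p of 0.054 to 0.12, without any 1 of gPSC4-EpiLC libraries 1 and 2, ESC-EpiLC libraries 1 and 2, ESC libraries 2 and 3 or the gPSC4 libraries. With all 21 libraries of the table in the fit, the adjusted p of Lefty1 was 0.11 and that of Trh 0.4. Among the genes called the same way in both origins, the 2 differences lay within 0.5 of each other for 82.4% and were at most 1.83 apart.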

How the data were processed

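RNA sequencing libraries were compared from the FPKM table that the authors deposited, with gene symbols as given per the file headers. Genome build mm10 and the tools Bowtie2, HISAT2, RSEM, R 3.4.2 and DESeq2 are named in the submitters' processing notes without role or order. ESC columns and MEF columns could be matched to their group but not to a single sample. From the FPKM, log2(FPKM + 1) was fitted with limma 3.58.1 in R 4.3.3, with a mean-variance trend and Benjamini-Hochberg adjustment over all 13008 genes with at least 1 FPKM in at least 3 of the 12 libraries. Step and origin were the terms of one fit, and a fit of 4 groups gave the step within each origin and the difference between the steps. Calls were made at an adjusted p below 0.05 with a log2 difference of 1 or more in either direction. Whole reads were recovered from the FPKM steps for 17599 of 17600 genes within 0.001 reads and used for depth and for 1 alternative. The 37 gene lists held 787 entries, of which 785 were matched, and a gene in several lists counts in each. Members and lists were chosen with earlier results of these data known. Named genes were the markers, the 15 genes with the highest and the 15 with the lowest difference, and up to 5 called genes per list, taken by size of difference. The 15 highest and 15 lowest came from genes called the same way in both origins, not abundant in MEF and with a group mean of at least 5 FPKM. Their EpiLC and stem cell libraries also had to be without overlap, so the separation of these genes was set by the choice. Predicted genes and repeated symbols were left out of that ranking. All other list members in the text, such as Ldha, Dusp6, Grhl1 and Nkd1, were chosen after their values were seen. Genes abundant in MEF had at least 10 FPKM in each MEF library and at least 3 times the stem cell mean, and 152 tested genes had no value in both MEF libraries, whose tables were normalized separately. Alternatives changed the pseudocount, the filter, the scaling (median-ratio or quantile), the minimum difference, the libraries in the fit, the replicate block, the test and the MEF rule, and left out each library in turn. The fits were tested on simulated data. Some genes are not reported here.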

Additional observations from a re-analysis of the deposited data

Results flagged for a closer look

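A difference between origins marked 4 results. They stood out because the step to EpiLC differed between the 2 origins by the test of the difference itself, gPSC4 origin minus ESC origin, in limma with adjustment over 13008 genes. The values were -1.07 for Trh, -1.26 for Lefty1, -1.78 for Golga7b and 3.64 for Gm5878, on the log2(FPKM + 1) scale. Golga7b was above 0 in the 3 ESC-EpiLC libraries alone of the 12, and passed the filter of 1 FPKM in 3 libraries only through them. Gm5878 reached 6.07 FPKM in gPSC4-EpiLC, 1.15 FPKM in ESC-EpiLC, 0.285 FPKM in gPSC4 and 3 FPKM in ESC at most.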

How the results depend on the processing

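Against 2867 calls for the step with origin as a covariate, 2992 in the ESC origin, 2921 in the gPSC4 origin, 2359 the same way in both and 2171 of those not abundant in MEF, calls without a minimum difference numbered 8799, 7285, 7146, 5897 and 5612, and 7 against 4 for the difference between origins. That difference gave 2 calls with a pseudocount of 0.1, 2 with a filter of 5 FPKM, 2 with all 21 libraries in the fit (both higher, 1 of them shared) and 1 with voom on recovered reads. Leaving out 1 library gave 2848 to 2901, 2942 to 3015, 2890 to 2990, 2312 to 2378 and 2118 to 2191 calls in the order above, and 2 to 7 for the difference. Deviations of same-numbered libraries correlated at 0.008 to 0.187. They were highest for number 1 (0.146 to 0.187) and lowest for number 2 (0.008 to 0.047). Such weak positive values do not settle whether replicate numbers pair the samples, and the main fits left the numbers out. With a replicate block the counts were 2868, 3000, 2934, 2362 and 2174, and 8 for the difference. With genes abundant in MEF set apart whatever their stem cell level, 1718 genes were left, 888 higher and 830 lower against 1032 and 1139 by the rule used, so that the higher genes then outnumbered the lower. A ratio of 1 left 2025, a ratio of 10 left 2288, and abundance in at least 1 MEF library, chosen after seeing the data, left 2056. The median difference over all genes was 0.005 with median-ratio scaling and 0.037 under quantile normalization, where core pluripotency genes had 1 higher and 3 lower and the median of the 19 polycomb complex 1 genes was 0.025 against -0.024. Col4a2 (-1.04) was at -0.98 without ESC-EpiLC library 3, and Eif2s3y (-1.01) at -0.93 without that library. No named gene reversed under any alternative run. The cause of these shifts was not tested.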
